A study of Mus musculus with 6 samples.

Results

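The interferon-stimulated genes described here are 38 mouse genes, taken by symbol from a fixed list and found in the deposited table through their Ensembl identifiers, out of 57180 identifiers in all. Expression was measured by RNA sequencing of wild-type mouse bone marrow-derived macrophages, primary cells that fuse into bone-resorbing osteoclasts under osteoclast-inducing culture. All cells spent 5 days in that culture, either without further treatment (control 1 to 3) or with Visomitin (Visomitin 1 to 3), an antioxidant built from plastoquinone and a positively charged group that draws it into mitochondria. The sources used here give neither the dose nor the strain and age of the mice, nor whether libraries came from separate mice or cultures. The p-values therefore measure the spread among these 6 libraries alone, part or all of which may be technical. Values are TPM, transcript abundances scaled to a constant total per library, from which the sequencing depth cannot be read.

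Of the 38 genes, 36 reached 1 TPM in at least 3 libraries and were tested. Mx2, an antiviral GTPase, stayed at 0.57 to 1.07 TPM and Ifi44, an interferon-induced gene, at 0.40 to 1.02 TPM, and both were left out of the test. None of the 36 passed limma's test with Benjamini-Hochberg adjustment at 0.05, so 0 were called higher and 0 lower with Visomitin. Of all 11753 genes tested 7.1% were called, 2.08% higher and 5.03% lower. At an unadjusted p under 0.05 there were 7 members, all lower with Visomitin (Rtp4, Oasl1, Eif2ak2, Oas1a, Ifi35, Irgm1 and Oas3). That is 19.4% of the 36, where 24.4% of all genes tested reached it, 15.2% lower and 9.12% higher. With limma's array weights, which let libraries count unequally, 6 of the 36 were called, where 24.1% of all genes tested were. A fit that blocked on library number called 3 of the 36, where it called 9.42% of all genes tested. Within the controls the libraries were set apart: control 2 held the highest value of the controls for 31 of the 36 members, where it did so for 27.5% of all genes tested.

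Interferons are secreted proteins that warn cells of infection. Type I interferons bind the receptor made of IFNAR1 and IFNAR2, and interferon gamma binds the one made of IFNGR1 and IFNGR2. The receptors activate Janus kinases, which pass the signal to transcription factors. Complexes that contain STAT2 and IRF9 then bind the interferon-stimulated response element (ISRE), interferon gamma also acts through the gamma-activated site (GAS), and the target genes encode antiviral proteins. In osteoclast precursors, interferon beta made after RANKL stimulation is known to restrain osteoclast formation, and interferon gamma does so too.

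Letters of these elements were found in front of many members. RefSeq promoter sequences (GRCm38.p6) were matched for 30 of the 38 members, 6 of them with more than 1 listed start. The ISRE was searched as a pair of GAAA words with any 2 bases between them, or on the other strand a pair of TTTC words spaced alike, in the 250 bases before each start. It was present for 15 of 30 members (50%), against 3.46% of the 27025 symbols with a promoter. The GAS was searched as TTCNNNGAA, which reads the same on both strands, and was present for 9 of 30 members against 8.13% of all symbols. Among the members the matches of both motifs overlap in Bst2 alone. A match is a description of these letters and not a binding site. The windows below are shown because they carry the ISRE letters, in capitals, for members whose values are described further on. Each is written 5′ to 3′ on the strand of the gene, and each ends before the start of transcription.
Ifit1, chr19:34640765-34640833, plus strand: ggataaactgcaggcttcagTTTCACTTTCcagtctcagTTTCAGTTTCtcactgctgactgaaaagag
Ifit3, chr19:34583353-34583436, plus strand: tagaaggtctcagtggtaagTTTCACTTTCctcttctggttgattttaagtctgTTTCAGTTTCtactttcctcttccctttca
Ifit3b, chr19:34607749-34607832, plus strand: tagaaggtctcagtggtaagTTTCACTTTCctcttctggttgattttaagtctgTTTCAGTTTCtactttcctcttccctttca
Isg15, chr4:156200855-156200916, minus strand: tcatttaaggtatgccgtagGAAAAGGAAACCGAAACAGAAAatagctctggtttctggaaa
Oas1a, chr5:120907526-120907565, minus strand: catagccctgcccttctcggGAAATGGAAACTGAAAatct
Oas3, chr5:120777705-120777754, minus strand: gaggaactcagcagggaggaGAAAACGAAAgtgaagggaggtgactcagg
Igtp, chr11:58199502-58199551, plus strand: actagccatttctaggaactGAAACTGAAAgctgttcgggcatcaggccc
Cxcl10, chr5:92349073-92349122, minus strand: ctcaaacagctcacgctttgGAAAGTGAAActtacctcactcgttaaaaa
Isg15 carries 3 overlapping matches and Oas1a 2. The windows of Ifit3 and Ifit3b are the same over all 84 bases. Their transcripts are alike as well: 61.8% of the 31-base words of Ifit3 occur in Ifit3b, so reads shared by the pair could have been split either way, and both values are uncertain. The same holds for Oas1a, which shares 68.7% of its words with Oas1g. Of the 6 members whose groups did not overlap, described further on, Oas1a and Irgm1 held the ISRE letters and Eif2ak2 the GAS letters alone. Neither was in the windows of Ifi35 and Oasl1, and Rtp4 is among the 8 members with no matched promoter.

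The 38 members summed to 1053, 1283 and 1051 TPM in control 1 to 3 and to 984, 1106 and 1063 TPM in Visomitin 1 to 3. Bst2 and Samhd1 made up a large share. Without them the sums were 546, 705 and 524 TPM in the controls and 481, 585 and 534 TPM with Visomitin. Control 2 was the highest of the 6 libraries and Visomitin 2 the highest of its group in each of these sums, and the groups overlapped.

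**Figure D1:**
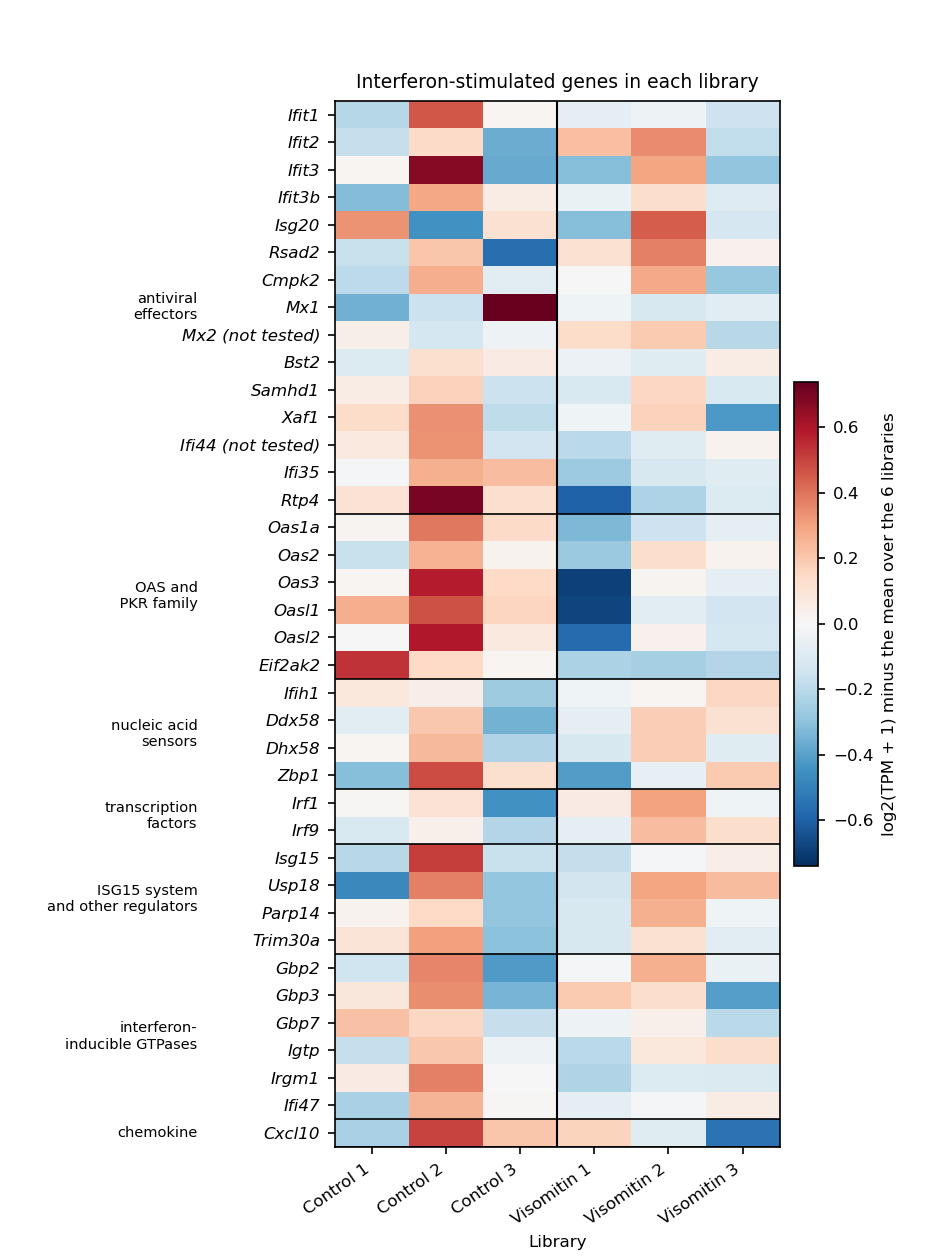
Level of each of the 38 interferon-stimulated genes (rows, grouped by role) in the 6 libraries (columns), as log2(TPM + 1) minus the gene's mean over all libraries; red is above and blue below that mean. The control 2 column is red for nearly all rows, and all OAS and PKR rows are blue in Visomitin 1.

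Antiviral effectors block steps of virus entry, translation and replication, and 13 of the 15 were tested. Bst2, also called tetherin, which holds budding virus at the cell surface, was the most abundant member at 346, 404 and 388 TPM in control 1 to 3 and 361, 349 and 386 TPM in Visomitin 1 to 3. The groups overlapped, and the log2 difference, Visomitin minus control on the log2(TPM + 1) scale as for all differences here, was -0.05 (95% interval -0.25 to 0.14). This scale understates the change of genes near 1 TPM. Samhd1, which degrades the nucleotides that reverse transcription needs, stood at 161, 174 and 138 TPM in the controls and 142, 171 and 143 TPM with Visomitin. In both groups the library numbered 2 was highest.

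The IFIT genes, whose proteins bind foreign RNA and which neighbour each other in the genome, were low. Ifit3 was at 7.51, 12.4 and 5.52 TPM in the controls and 5.77, 9.33 and 5.89 TPM with Visomitin. Its within-group SD of 0.45 on the log2 scale was the largest of the 36 members, against a difference of -0.21. Ifit1 was at 2.23, 4.12 and 2.77 TPM and then 2.55, 2.63 and 2.36 TPM, so that control 2 alone stood above all others. Ifit2 had one of the 5 largest positive differences (0.26, adjusted p = 0.47) at 2.17, 2.94 and 1.77 TPM in the controls and 3.17, 3.54 and 2.15 TPM with Visomitin. Ifit3b lay between 0.62 and 1.46 TPM.

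Rsad2, which encodes viperin, had the largest positive difference of the list. It was at 2.75, 3.83 and 1.85 TPM in the controls and 3.54, 4.42 and 3.29 TPM with Visomitin (0.34, SE 0.21, limma adjusted p = 0.36). Control 2 lay above 2 of the 3 Visomitin libraries, and the groups overlapped. Cmpk2, its neighbour in the genome and the gene of a mitochondrial nucleotide kinase, was at 2.91 to 4.76 TPM with a difference of 0.00. Mx1, an antiviral GTPase, was at 0.79, 1.05 and 2.82 TPM in the controls and 1.24, 1.11 and 1.17 TPM with Visomitin. Control 3 alone was high. Isg20, an exonuclease gene, was at 3.46, 1.60 and 2.84 TPM and then 1.85, 3.84 and 2.25 TPM. It was the only tested member with its lowest control value in control 2.

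A pair of the 13 tested effectors had ranges that did not overlap, where 30.4% of all genes tested did not, 18.4% with Visomitin below. Rtp4, which encodes a receptor transporter protein, had the largest negative difference of the list. It was at 21.8, 33.3 and 22.0 TPM in the controls and 12.96, 17.0 and 18.7 TPM with Visomitin (-0.62, SE 0.19, limma adjusted p = 0.093). Ifi35 was at 29.8, 36.2 and 35.3 TPM in the controls and 24.8, 27.6 and 28.1 TPM with Visomitin (-0.32, SE 0.11, limma adjusted p = 0.12). For both, every Visomitin library lay below every control, and neither passed the test. Xaf1, which binds the apoptosis inhibitor XIAP, was at 14.4 to 25.1 TPM with overlapping groups.

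The OAS and PKR family makes proteins that sense double-stranded RNA and stop translation, and all 6 of its members had differences below 0, from -0.60 to -0.08 with a median of -0.45. The median over all 36 members was -0.06 and that over all genes tested -0.03, and 55.7% of all genes tested were below 0. All 6 remained below 0 after median-ratio scaling and quantile normalization. With array weights, without control 2 and without Visomitin 1 there were 5. None of the 6 passed the test, and 3 had ranges that did not overlap, with Visomitin below. Of all genes tested 30.4% did not overlap, 18.4% with Visomitin below.

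Oasl1, which restrains translation of Irf7, was at 5.34, 6.30 and 4.88 TPM in the controls and 2.29, 3.98 and 3.77 TPM with Visomitin (-0.60, SE 0.19, limma adjusted p = 0.10). Oas1a, a synthetase whose product activates RNase L, was at 64.7, 83.7 and 70.4 TPM in the controls and 50.5, 57.2 and 61.0 TPM with Visomitin (-0.37, SE 0.12, limma adjusted p = 0.11). Eif2ak2, which encodes the kinase PKR, was at 13.8, 10.4 and 9.36 TPM and then 7.70, 7.65 and 7.83 TPM (-0.46, SE 0.15, limma adjusted p = 0.10). Its Visomitin values were nearly alike, and all were below the lowest control. For all 3 genes the groups did not overlap.

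Oas3 and Oasl2 overlapped between groups. Oas3 was at 25.7, 38.5 and 28.3 TPM in the controls and 15.4, 25.8 and 24.3 TPM with Visomitin (-0.49, limma adjusted p = 0.20). Oasl2 was at 36.3, 55.2 and 38.3 TPM and then 24.2, 37.2 and 33.1 TPM (-0.44, limma adjusted p = 0.21). In both genes control 2 was the high library and Visomitin 1 the low one. Oas2, which neighbours Oas3, was at 10.01 to 14.86 TPM.

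Visomitin 1 was also low for many genes outside the list, although TPM have a constant total per library. It was the lowest Visomitin library for 63.4% of all genes tested and for 22 of the 36 members (61.1%). Without it the log2 difference of Oas3 was -0.27 and that of Oasl2 also -0.27. Without control 2 they were -0.33 and -0.26.

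**Figure D2:**
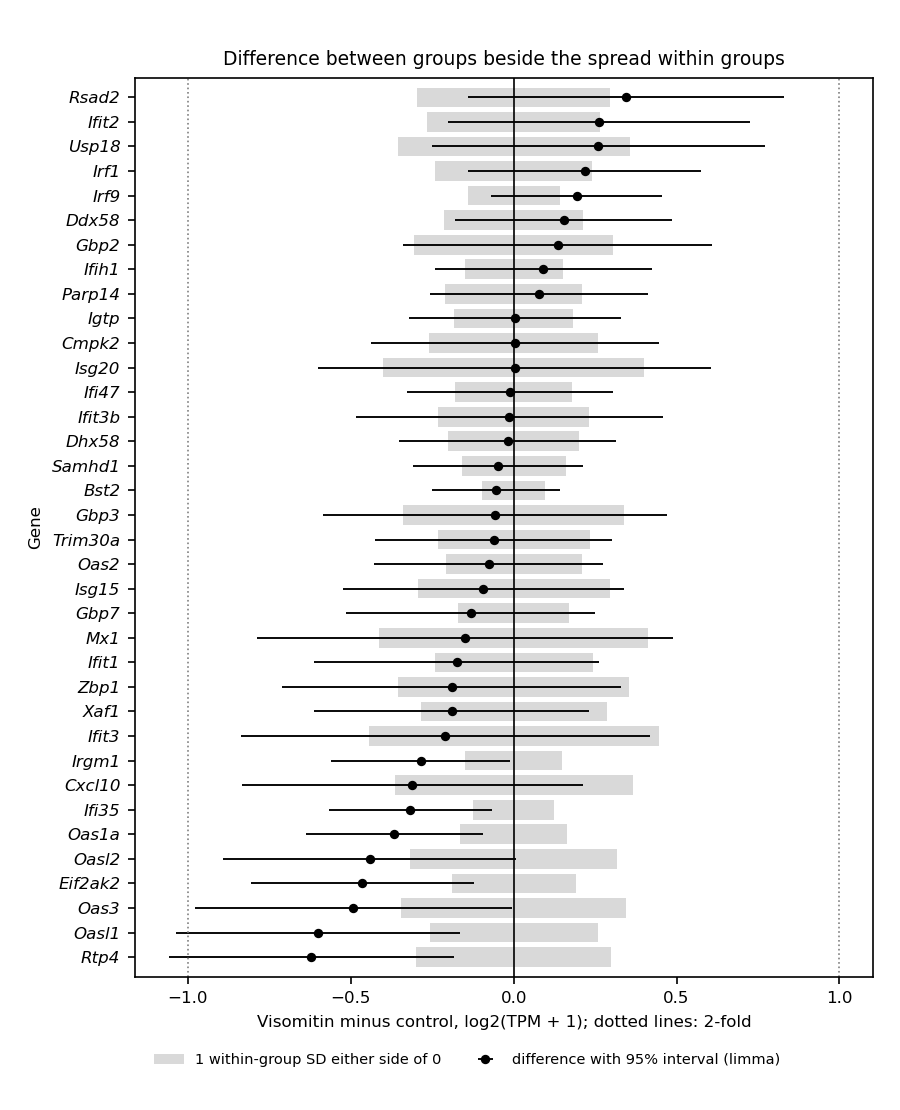
Difference between groups for each of the 36 tested members (points, log2 scale, Visomitin minus control) with its 95% interval from limma (lines), beside 1 pooled within-group SD on either side of 0 (grey bars). Most points lie within their grey bar, and the 6 genes with non-overlapping groups are all on the negative side. Groups did not overlap for 16.7% of members and 30.4% of all genes tested.

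Cytosolic sensors detect viral nucleic acid. Ddx58, which encodes RIG-I, was at 31.8, 38.8 and 26.3 TPM in the controls and 32.1, 38.4 and 36.6 TPM with Visomitin. Dhx58, which encodes the related LGP2, was at 18.3, 21.6 and 15.4 TPM and then 16.6, 20.7 and 17.0 TPM. In both genes the library numbered 2 was highest in each group. Zbp1, a sensor of Z-form nucleic acid that can start necroptosis, was at 5.97, 11.1 and 8.4 TPM and then 5.50, 7.30 and 8.89 TPM. Ifih1, which encodes MDA5, was at 4.19 to 5.94 TPM. The differences of these 4 genes ran from -0.19 to 0.15, and none exceeded its within-group SD.

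The transcription factor genes in the list had small positive differences that did not pass. Irf1, which switches on many targets of interferon gamma, was at 50.4, 53.9 and 36.5 TPM in the controls and 52.2, 61.6 and 48.9 TPM with Visomitin (0.22, limma adjusted p = 0.44). Irf9, a DNA-binding partner of STAT2, was at 29.9, 33.3 and 27.8 TPM and then 30.8, 38.2 and 35.6 TPM (0.19, limma adjusted p = 0.35). Controls 1 and 2 lay above Visomitin 3 in Irf1 and control 2 above Visomitin 1 in Irf9, so the groups overlapped.

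Isg15 encodes a ubiquitin-like protein, and Usp18 encodes the protease that removes it and also blocks signalling at IFNAR2. Isg15 was at 18.9, 31.6 and 19.5 TPM in the controls and 19.3, 21.7 and 22.7 TPM with Visomitin. Control 2 alone stood apart, and the difference of -0.09 turned to 0.14 without it. Usp18 was at 9, 17.1 and 10.4 TPM and then 11.7, 16.02 and 15.4 TPM, with a difference of 0.26 that was 0.51 without control 2 (limma adjusted p = 0.52 and 0.14). Parp14, an ADP-ribosyltransferase gene, was at 26.8, 29.2 and 21.4 TPM and then 24.2, 31.8 and 25.8 TPM. Trim30a, whose protein dampens Toll-like receptor signalling, was at 22.3, 25.9 and 16.7 TPM and then 19.1, 22.6 and 19.6 TPM. All 4 had their highest control value in control 2.

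The interferon-inducible GTPases attack the vacuoles of intracellular microbes. Irgm1 was at 28.2, 35.1 and 26.8 TPM in the controls and 23.0, 25.1 and 24.9 TPM with Visomitin. Its groups did not overlap, and it did not pass (-0.29, SE 0.12, limma adjusted p = 0.19). Igtp was at 10.6, 14.0 and 11.8 TPM and then 10.4, 12.8 and 13.3 TPM, a difference of 0.00. Ifi47 was at 12.2, 17.6 and 14.8 TPM and then 13.9, 14.6 and 15.3 TPM, a difference of -0.01. The guanylate-binding protein genes Gbp2, Gbp3 and Gbp7, neighbours in the genome, were at 2.09 to 7.58 TPM with overlapping groups.

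Cxcl10, the chemokine that draws T cells, was at 10.4, 18.0 and 14.5 TPM in the controls and 14.1, 11.6 and 8.20 TPM with Visomitin. Its difference of -0.31 (SE 0.23, limma adjusted p = 0.45) was smaller than its within-group SD of 0.37. Control 2 was the highest library and Visomitin 3 the lowest.

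Spread within groups was compared with the difference between groups for all 36 members. The median within-group SD was 0.24 on the log2 scale, against 0.16 over all genes tested, and the median absolute difference was 0.16 against 0.18. The difference exceeded 1 within-group SD for 10 of 36 members (27.8%) and for 52.4% of all genes tested. It exceeded 2 SDs for 5 members (13.9%): Ifi35, Rtp4, Oas1a, Oasl1 and Eif2ak2, against 25.1% of all genes. The groups did not overlap for 6 members, these 5 and Irgm1, all with Visomitin below. That is 16.7% of the 36, where 30.4% of all genes tested did not overlap, 18.4% with Visomitin below and 11.9% with it above. These shares describe the list beside all genes and were not tested.

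The interval of the difference describes what could have been missed given the spread among these libraries alone, part or all of which may be technical. For members near 1 TPM an interval inside 2-fold on this scale allows a larger change in TPM. For 34 of the 36 members the 95% interval lay inside a 2-fold change either way on the log2(TPM + 1) scale, against 89.8% of all genes tested. The exceptions were Rtp4 (-1.06 to -0.18) and Oasl1 (-1.04 to -0.16). For 18 members (50%) it lay inside a 1.5-fold change, against 62.8% of all genes, and the intervals of the other 18 reach past a change of that size.

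**Figure D3:**
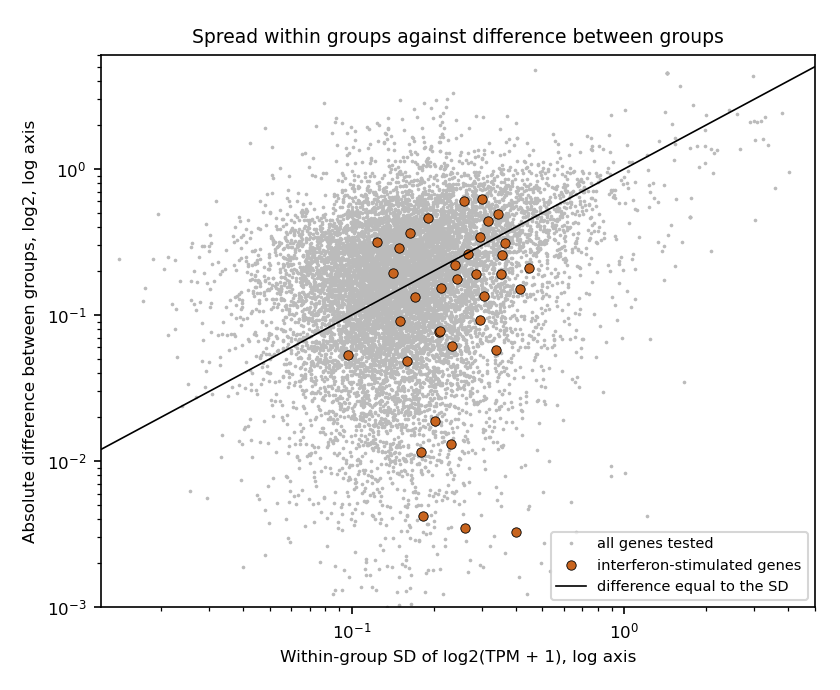
Absolute difference between groups against pooled within-group SD, both on log2(TPM + 1) and drawn on log axes, for all 11753 genes tested (grey) and the 36 members (orange); the line marks a difference equal to the SD. Of the members 10 (27.8%) lie above the line, against 52.4% of all genes tested.

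The larger spread was mostly on the control side. The median SD over the 36 members was 0.27 among the controls and 0.17 among the Visomitin libraries, and over all genes tested it was 0.12 and 0.16. Control 2, singled out after its values were seen, lay a median of 0.36 log2 units above the mean of controls 1 and 3, against -0.02 over all genes tested. It was above that mean for 33 of 36 members (91.7%), where it was so for 45.6% of all genes. The 5 tested members without their highest control value there were Mx1, highest in control 3, and Isg20, Eif2ak2, Ifih1 and Gbp7, highest in control 1. Control 1 was thus the highest control for 4 members (35.3% of all genes) and control 3 for 1 (36.8%). Control 1 was the lowest for 17 members (27.2% of all genes), control 3 for 18 (37.3%) and control 2 for 1, Isg20 (35% of all genes). For 31 of 36 members the gap of control 2 to the other controls was larger than the difference between the groups, which held for 37.9% of all genes tested.

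Visomitin 2 was the highest of its group for 23 of 36 members (63.9%), against 32.7% of all genes tested. Visomitin 3 was so for 10 members (49.3% of all genes) and Visomitin 1 for 3 (17.6%). Visomitin 3 was the lowest for 11 members (17% of all genes) and Visomitin 2 for 3 (19%). Both libraries numbered 2 were highest in their group for 21 members (58.3%) and for 10.8% of all genes. The labels do not say that the numbers mark a shared culture or day. Without control 2, 35 members were tested and 0 were called, where 3.83% of all genes tested were. Of the 35 members 14 had a difference below 0 and 21 above. Their median was 0.03, against -0.04 over all genes tested. With all libraries 24 were below 0 (66.7%, against 55.7% of all genes tested) and 12 above. The split was 21 and 15 after median-ratio scaling and 19 and 17 after quantile normalization. The median over all genes tested moved up as well, from -0.03 to 0.003 and 0.02. Without Visomitin 1 the median was -0.02 with 0 called, where the median over all genes tested was 0.01 and 8.45% of them were called.

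**Figure D4:**
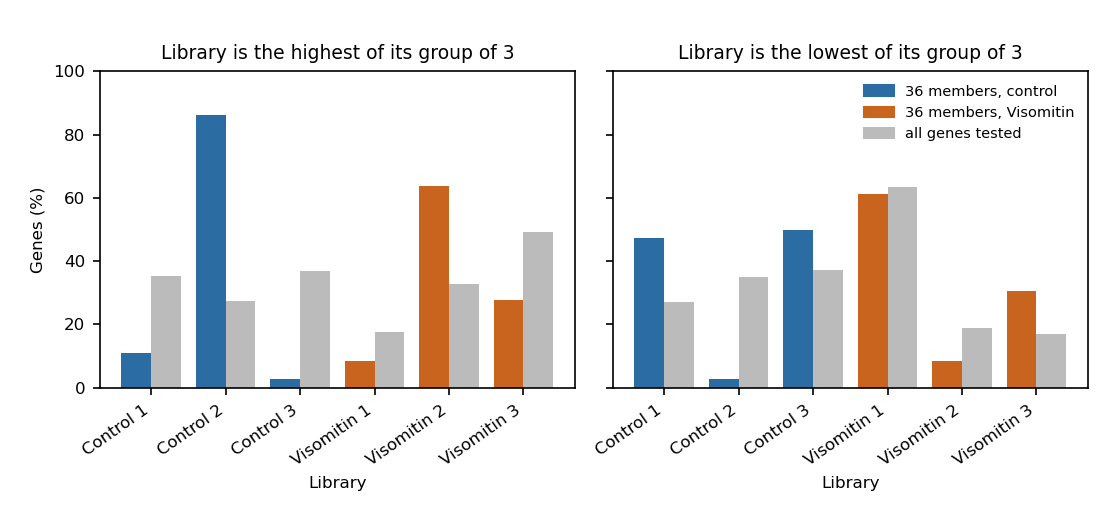
Share of genes for which each library was the highest (left) or the lowest (right) of its group of 3, for the 36 members (blue for control, orange for Visomitin) and for all genes tested (grey). Control 2 was highest for 86.1% of members and 27.5% of all genes.

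Markers of other cells were set beside this pattern. Summed stromal markers were 195, 100 and 294 TPM in control 1 to 3 and 70.1, 107 and 151 TPM with Visomitin, lowest among the controls in control 2. Summed neutrophil markers were 18.0, 11.6 and 19.5 TPM in the controls, with 4 of 6 listed at 0 in all libraries. Of 5 plasmacytoid dendritic cell markers, the defining Siglech and also Klk1 were listed at 0 throughout. The 5 summed to 14.2 to 16.6 TPM in the controls and 21.6 to 26.7 TPM with Visomitin, nearly all of it Tcf4 and Cox6a2. Of these 2, the only ones tested, Cox6a2 rose and Tcf4 did not pass. Ccr9 was at 0.09 TPM or less in all libraries. Of 9 T and NK cell markers 5 were at 0 in all libraries and the others summed to 0.34 to 1.51 TPM. The 3 erythroid markers were at 0. The macrophage markers summed to 36302 to 40619 TPM in the controls and 41962 to 47192 TPM with Visomitin, and 1 of 6, Mrc1, rose. Most of this sum was Lyz2 (34934 of 39489 TPM in control 1). Every Visomitin library lay above every control for Adgre1, Itgam, Lyz2 and Mrc1 and below every control for Cd68, and Csf1r overlapped. The osteoclast markers summed to 10956 to 11911 TPM in the controls and 2900 to 3484 TPM with Visomitin, and all 7 fell. In bulk RNA fewer cells of a type and less RNA per cell cannot be told apart. The part of these cells in the levels of the interferon-stimulated genes was not tested.

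The other genes of interferon production and signalling were followed in a list of 52, of which 39 were tested. Of these 3 rose (7.69%, against 2.08% of all genes tested) and 0 fell, and at an unadjusted p under 0.05 there were 9 (23.1%), all higher, where 24.4% of all genes tested reached it and 9.12% were higher. Without Visomitin 2 Tlr9 alone passed, and with no filter on low values Irf8 alone. These settings called 3.09% and 1.71% of all genes tested. All 10 interferon genes of the list, Ifnb1, Ifng and members of the alpha, epsilon, kappa and lambda families, were listed at 0 TPM in all 6 libraries. Depth is unknown, so no upper limit can be given.

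Ifngr1, the ligand-binding chain of the interferon gamma receptor, rose with Visomitin. It was at 174, 176 and 149 TPM in the controls and 216, 224 and 230 TPM with Visomitin (0.43, SE 0.09, limma adjusted p = 0.027). The call was lost with no filter on low values (adjusted p = 0.066), without the trend (0.065) and without each single library except Visomitin 1 (0.055 to 0.093), while the difference stayed at 0.35 to 0.47. Ifngr2, its partner chain, was at 58.1, 65.5 and 57.2 TPM and then 50.3, 59.9 and 63.9 TPM, with overlapping groups.

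Ifnar2 was at 65.1, 62.9 and 63.7 TPM in the controls and 74.6, 76.7 and 88.7 TPM with Visomitin. Its groups did not overlap, and it did not pass (0.32, SE 0.09, limma adjusted p = 0.079). It passed after median-ratio scaling (0.020), quantile normalization (0.021), with array weights (0.019) and without Visomitin 1 (0.046). Ifnar1 was at 83.9, 87.3 and 81.2 TPM and then 81.2, 92.8 and 99.7 TPM, a difference of 0.11 within overlapping groups.

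Irf8, a transcription factor of the macrophage lineage that represses osteoclast formation, rose from 62.0, 60.8 and 49.97 TPM to 86.7, 94.8 and 85.0 TPM (0.62, SE 0.11, limma adjusted p = 0.013). It missed the threshold without Visomitin 2 (0.054). Tlr9, the endosomal receptor for unmethylated CpG DNA, rose from 8.25, 7.92 and 6.18 TPM to 12.9, 17.0 and 14.3 TPM (0.90, SE 0.15, limma adjusted p = 0.012). It missed the threshold with no filter on low values (0.053). For both genes every Visomitin library was above every control.

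Stat2 and Irf7 did not pass. Stat2 was at 26.0, 29.5 and 23.4 TPM in the controls and 31.9, 32.4 and 30.4 TPM with Visomitin (0.26, limma adjusted p = 0.18), with no overlap between groups. Irf7, the factor that amplifies type I interferon production, was at 31.1, 50.3 and 35.5 TPM and then 22.6, 32.5 and 38.4 TPM. Irf7 is itself interferon-inducible, and among the controls it was highest in control 2. Control 2 was the highest control for 23 of the 39 tested genes of this list (59%), against 27.5% of all genes tested. Control 3 was the lowest control for 25 of them (64.1%), against 37.3% of all genes tested. The cause was not tested.

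**Figure D5:**
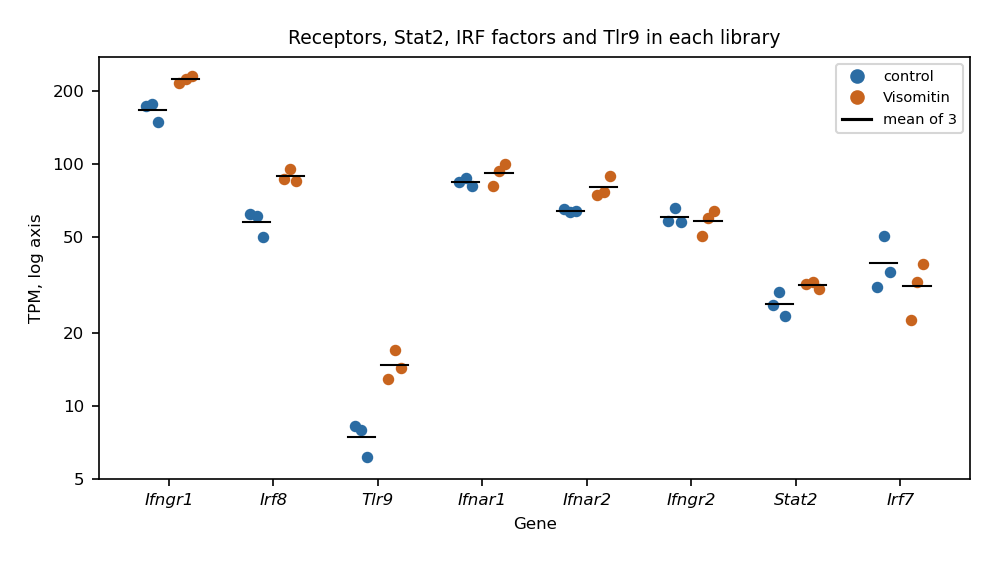
TPM (log axis) of the receptor genes, Stat2, IRF factor genes and Tlr9 in each library (points) with the mean of 3 (lines), controls in blue and Visomitin in orange. The Visomitin points of Ifngr1, Ifnar2, Stat2, Irf8 and Tlr9 lie above all their control points, while those of Ifnar1, Ifngr2 and Irf7 overlap. Of the 39 tested genes of the list 25.6% did not overlap, 23.1% with Visomitin above. Of all genes tested 30.4% did not overlap, 11.9% with Visomitin above.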

How the data were processed

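RNA was sequenced in 6 libraries, grouped by their labels. The deposited TPM were computed by the authors per gene and used unchanged. The submitters' processing notes name fastp, HISAT2 and StringTie. Tool versions, genome build, annotation and strand treatment: not given in the sources used here. TPM keep no depth, so how far depth limits the precision cannot be told. The small number of libraries limits it as well. A gene name table matched 51884 of 57180 identifiers and all 38 members.

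The 11753 genes reaching 1 TPM in 3 or more libraries were fitted with limma 3.58.1 (R 4.3.3, eBayes with a trend) on log2(TPM + 1), a pseudocount of 1, with group as the only term. Tests were two-sided, with Benjamini-Hochberg adjustment over all genes tested and a threshold of 0.05. The fit was tested on simulated data with noise drawn independently for each gene and library. Such data cannot probe a shift shared by many genes of a library. The within-group SD is its residual SD. Alternatives were other pseudocounts, filters and scalings, no trend, array weights, a replicate block and leaving out each library. No pair of libraries shared more than 0.391% of its tested values. The members and lists were chosen with earlier results of these data known, so no p-value was computed over a list. Every library's value is given for the 3 most abundant members of each role, the 5 with the largest rise, fall or spread, Cxcl10, Irf1, Irf9, Isg15 and Usp18, and, of the signalling list, called genes and main receptors and factors, of which 1 is not reported here. Ifit1 and the summaries of control 2 were added after their values were seen. Promoters are from RefSeq (GRCm38.p6), and 31-base words were counted in GENCODE M21 transcripts.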

Additional observations from a re-analysis of the deposited data

How the results depend on the processing

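The interferon-stimulated genes had 0 calls in either direction in all settings but array weights (1 higher, Irf9, and 5 lower) and the replicate block on the library number (3 lower: Rtp4, Oas3 and Oasl2), which called 24.1% and 9.42% of all genes tested. Residuals of same-numbered libraries correlated at 0.046, 0.020 and 0.17 over all genes, and of the controls control 3 alone correlated best with its own number, so the numbers were not taken to pair them. The block changed no call of the signalling list. All-gene calls, 835, were 381 when low values were not filtered, 2835 with array weights and 299 to 983 with 1 library left out, 299 without control 1. The median of the members, -0.06 in the main fit, ran from -0.14 to 0.03 over the settings and was above 0 without control 2 alone. Each move was smaller than the spread of 0.17 between libraries. Leaving out 1 library moves a group mean by only part of that library's deviation, so this comparison could hardly fail and does not show a stable median. Signalling genes called higher numbered 6 after median-ratio scaling, 7 after quantile normalization, 1 when low values were not filtered, 8 with array weights, and 1 to 4 with 1 library left out; 0 were lower in any setting. Among the genes chosen by rule for library values, signs of small differences, none called, turned for Samhd1 (0.035 under quantile normalization, 0.034 with array weights), Dhx58 (0.021 under median-ratio scaling, 0.029 under quantile normalization, 0.061 with array weights) and Ifi47 (0.028 under median-ratio scaling, 0.046 under quantile normalization). Among the same genes the ranges that crossed 0 with 1 library left out were -0.14 to 0.026 for Samhd1, -0.14 to 0.10 for Dhx58, -0.39 to 0.0029 for Zbp1, -0.046 to 0.17 for Parp14, -0.22 to 0.14 for Isg15, -0.23 to 0.073 for Trim30a, -0.14 to 0.11 for Ifi47, -0.081 to 0.11 for Igtp, -0.45 to 0.074 for Ifit3, -0.37 to 0.18 for Mx1, -0.22 to 0.17 for Isg20 and -0.13 to 0.040 for Ifngr2. Members outside that rule turned as well, among them 1 of the OAS and PKR family with array weights, without control 2 and without Visomitin 1. The causes were not tested. A fit without a library has fewer residual degrees of freedom and less power.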
